A study of Mus musculus with 26 samples.

Results

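The genes described are the sarcomere myosin, actin, tropomyosin and troponin families, taken by their symbols: every measured gene named Myh, Myl, Mybp, Tnnc, Tnni, Tnnt, Tpm, Actn, Myoz or Myom with a suffix, plus Acta1 and Actc1, and without Tnni1 and Tnnt1. The rule found 22 genes among the 6540 on the arrays, each on 2 rows of spots, and the rule uses no expression value. The label holds only in part. The 22 include no muscle myosin heavy or light chain, and the single myosin heavy chain is Myh9, that of non-muscle myosin. Actc1, cardiac actin, was not among them. Tpmt encodes thiopurine methyltransferase, an enzyme outside the sarcomere, and was matched by its letters alone.

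The sarcomere is the contractile unit of striated muscle. Myosin filaments pull on actin filaments, and tropomyosin with the troponin complex (troponin C binds calcium, troponin I inhibits, troponin T anchors the complex to tropomyosin) decides when they can. Alpha-actinins and myozenins hold actin at the Z-disc, the border between sarcomeres, while myomesins and myosin-binding proteins sit on the myosin filament. Fast fibres, slow fibres, heart and embryonic muscle use different members of each family. Fibres that regenerate after damage are known to pass again through embryonic forms before they mature.

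RNA of 13 groups of mice was compared on 26 arrays with 2 channels, with 2 RNA samples per group. Every sample was hybridised in both channels, on different arrays and against different partners, and the 26 samples form a closed loop without a common reference. The wild type groups were bl6 and bl10. The lines mdx and mdx3cv lack dystrophin, the protein that ties the fibre's cytoskeleton to its membrane, and sgca, sgcb, sgcb2, sgcd and 1 further line lack a sarcoglycan, a membrane partner of dystrophin. These 7 lines (14 samples) are called DS lines here. The lines dysf and sjl lack dysferlin, which takes part in membrane repair, sspn lacks sarcospan, a small member of the dystrophin complex, and hDMD carries the human dystrophin gene. The missing genes were read from the names of the groups. The sources used here do not give the tissue, age, sex, alleles and background strain, nor how sgcb2 differs from sgcb, so strain and missing protein cannot be told apart. Whether both samples of a group came from different mice is not stated either. The p-values therefore measure the spread between samples that may be technical replicates.

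All values are log2 differences between samples; an array of this kind gives no level, so no gene's abundance can be set against another's, and the fibre and heart markers of the tissue could not be checked as levels. The direction, channel 1 over channel 2, is likely but not stated: read that way, a line's missing gene was lower in the line in 7 of 9 cases (3 with a limma unadjusted p under 0.05), and read the other way in 2 of 9 (0 with such a p). By far the largest difference, with channel 1 over channel 2, was that of Sgca in sgca, at -4.33 ± 0.49 (limma adjusted p = 6.98e-05). The 2 exceptions both concern Dysf, whose fitted difference from wild type was 0.546 ± 0.618 for dysf and 0.764 ± 0.502 for sjl. Neither had a limma unadjusted p under 0.05. For these lines the missing gene therefore backs neither the direction nor the identity read from the group name. Every "higher" and "lower" rests on the direction taken. Sample values, given relative to the mean of the 4 wild type samples, were followed around the loop from array to array, so their errors add up along it. The group values come from a fit to all arrays, and both appear where they matter. Across bulk RNA, fewer cells of a type and less RNA per cell cannot be told apart.

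In several members hDMD sample 1 stood apart from its partner. Its arrays had the highest and the 5th highest spread over genes of the 26, an SD of 1.31 and 1.00 on the log2 scale against a median of 0.76. The next highest were those of mdx sample 1 with bl6 sample 1 (1.26) and of bl6 sample 2 with sgca sample 1 (1.15). The loop value of hDMD sample 1 for Actn3 was -7.12 and for Actn2 -4.61, where hDMD sample 2 stood at -0.19 and -0.80. Several results that lean on this sample are given with and without it.

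Sequences are shown first for the gene on which most of the results turn, Tnnt2, and for members that share a short motif with it. RefSeq promoters (build GRCm38.p6) were matched for 17 of the 22 genes, and the 250 bases before each start were searched on both strands. The M-CAT motif, written CATTCC, is known as a binding site of TEAD factors in muscle promoters and was first described in cardiac troponin T. It lay in 7 of the 17 genes (41.2%) and in 12.6% of all 32851 RefSeq promoters. The members were counted by gene, where any of a gene's entries sufficed (19 entries in all), and the background by entry. The 2 shares are therefore not fully alike, here and for the other motifs below. Only the letters searched for are in capitals (CATTCC, or GGAATG on the opposite strand), and all sequences run along the gene's own strand. Tnnt2 has 2 entries, of which the first holds the motif, and its 250 bases before the start (chr1:135836084-135836333, plus strand) were:

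Tnnt2: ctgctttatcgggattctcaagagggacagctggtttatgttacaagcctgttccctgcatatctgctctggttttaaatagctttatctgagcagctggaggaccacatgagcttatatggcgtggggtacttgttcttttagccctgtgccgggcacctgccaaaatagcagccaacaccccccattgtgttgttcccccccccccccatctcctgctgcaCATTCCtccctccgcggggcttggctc

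The motif of Tnnt2 spans bases -27 to -22 before the start. In the other 6 genes it was found at these places, shown with 10 bases on each side to make its setting comparable.

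Acta1 (chr8:123894806-123894831, minus strand, bases -46 to -41): agggcagcaaCATTCCttcggggcgg
Tnnc1 (chr14:31208244-31208269, plus strand, bases -58 to -53): ggctgggctgGGAATGtagcaggagg
Tpm1 (chr9:67049254-67049279, minus strand, bases -56 to -51): gctgtcctaaGGAATGcggtcgcccc
Mybph (chr1:134193365-134193390, plus strand, bases -73 to -68): cccacagctgGGAATGgtttgctggg
Mylk (chr16:34784782-34784807, plus strand, bases -158 to -153): cagttcagaaCATTCCctggtacgtg
Actn4 (chr7:28962533-28962558, minus strand, bases -216 to -211): aatgggaacaCATTCCaccccgaaac

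Of the 7 genes with the motif, 1 passed the test in the DS lines, where 7.80% of all genes passed. Their differences between DS lines and wild type ran from -0.58 in Acta1 to 2.02 in Tnnt2, and the 1 that passed was Tnnt2. The other motifs searched were the E-box, written CANNTG (16 of 17 genes, 94.1%, against 66.2% of all promoters), the TATA box, written TATAAA (3 genes, 17.6% against 12.4%), the MEF2 box (2 genes, 11.8% against 2.9%) and the CArG box (2 genes, 11.8% against 1.5%). The MEF2, CArG and TATA boxes can share bases, and a match of letters is a description, not a site in use.

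Tnnt2, troponin T of the heart and of embryonic and regenerating skeletal muscle, was the member with the clearest difference. Its loop values were 0.64 and -0.91 in bl6 and -1.08 and 1.35 in bl10. In the 14 samples of the DS lines they ran from -0.51 to 4.32 with a median of 1.42, and 7 of the 14 lay above all 4 wild type samples. The groups therefore overlapped, by way of bl10 sample 2 at the upper end of wild type and of several DS samples near 0. On the 5 arrays that held a DS sample directly against a wild type sample, Tnnt2 was higher in the DS sample on 5, by 0.90 to 3.70 with a median of 2.02. Such readings have the gene's own dye effect, its mean ratio over the 26 arrays, taken off.

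In the fit Tnnt2 rose by 2.02 ± 0.40 (SE) in the DS lines, 4.05-fold (limma with Benjamini-Hochberg over all 6540 genes, adjusted p = 0.00471), with 7 of 7 lines above the wild type mean. It was the 1 member of 22 past an adjusted p of 0.05, where 7.80% of all genes passed, 422 higher and 88 lower. At an unadjusted p under 0.05 (limma) stood 4 of 22 members and 21.9% of all genes. The median difference of the 22 members was 0.00 (11 above 0 and 11 below), beside 0.06 for all genes. Taking out bl10 sample 2 ended the call (1.94, limma adjusted p = 0.0702), and so did bl10 alone as wild type (1.97, adjusted p = 0.101), while bl6 alone kept it (2.07, adjusted p = 0.0182). Between bl10 and bl6 themselves Tnnt2 differed by 0.10 ± 0.63.

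In sgca 4 of 22 members passed, and in sgcd and mdx 1 each, beside 7.42%, 2.13% and 1.33% of all genes. Tnnt2 was called in each of these lines. It rose by 2.90 ± 0.56 in sgca (limma adjusted p = 0.0061), by 2.83 ± 0.63 in sgcd (0.0209) and by 2.26 ± 0.55 in mdx (0.0475). The 2 sgca samples stood at 2.79 and 2.34, both above wild type. The sgcd samples stood at 2.85 and 0.59 and the mdx samples at 4.32 and 0.89, so in each of these lines 1 sample lay within the range of wild type. The line sgcb2 differed by 2.54 ± 0.59 (limma adjusted p = 0.0737), sgcb by 1.46 ± 0.68 (0.428) and mdx3cv by 0.94 ± 0.58 (0.644), none of which passed. In this order the values of sgca, sgcd, sgcb2 and mdx lie within 1 SE of their neighbours, and differences between lines were not tested.

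The calls by line were less firm than the pooled one. That of sgca was lost without bl6 sample 2 (2.52, limma adjusted p = 0.0721), without sgca sample 1 (1.56, 0.875) and against bl10 alone (2.85, 0.0704). That of sgcd was lost without any 1 of 11 of the 26 samples (both samples of bl10, mdx3cv, sgcb2, sgcd and sspn, and sgca sample 2). The sgcd values over all omissions ran from 2.13, without sgcd sample 1, to 3.43. That of mdx was lost without any 1 of 17 samples, among them all 4 wild type samples, both samples of mdx3cv, sgcb2, sgcd and sspn, dysf sample 2, sgcb sample 2 and mdx sample 1. Without mdx sample 1 the mdx difference was 0.82, with the arrays centred on their medians it was 2.18 (limma adjusted p = 0.0614), and with centred and scaled arrays 1.51 (0.438).

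Outside the DS lines Tnnt2 lay near wild type or below it. It differed by 0.36 ± 0.70 in dysf, 0.23 ± 0.57 in sjl and 0.17 ± 0.66 in hDMD, none past the test. Around the loop the samples stood at -0.83 and -0.99 in dysf, 1.12 and -0.55 in sjl and -0.48 and -1.13 in hDMD. Both dysf and both hDMD samples thus lay below the wild type mean, unlike their fitted values. The value of hDMD sample 2 was also below the lowest wild type sample, at -1.08. Both sspn samples, at -2.32 and -2.29, lay below the lowest wild type sample, although the fitted difference from wild type of -1.16 ± 0.68 did not pass (limma adjusted p = 0.504). Set directly against sspn, a comparison added after its values were seen, Tnnt2 stood 9.06-fold above it in the DS lines (3.18 ± 0.55, adjusted p = 0.00355 by limma). It was the 1 member called of 22, where 2.94% of all genes were called, and 6 members stood at an unadjusted p under 0.05, as did 17.2% of all genes. Of the 26 single omissions 4 ended the call, among them those of the sspn samples (3.32 without sspn sample 1, adjusted p = 0.169, and 3.09 without sspn sample 2, 0.183) and that of sgcb sample 2 (2.92, 0.0545). Against the dysferlin-deficient lines Tnnt2 in the DS lines differed by 1.72 ± 0.40, which missed the threshold (limma adjusted p = 0.121, unadjusted p = 0.000316). In that comparison 0 of 22 members passed by limma, where 0.122% of all genes did, and 1 stood at an unadjusted p under 0.05, beside 8.4% of all genes.

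**Figure D1:**
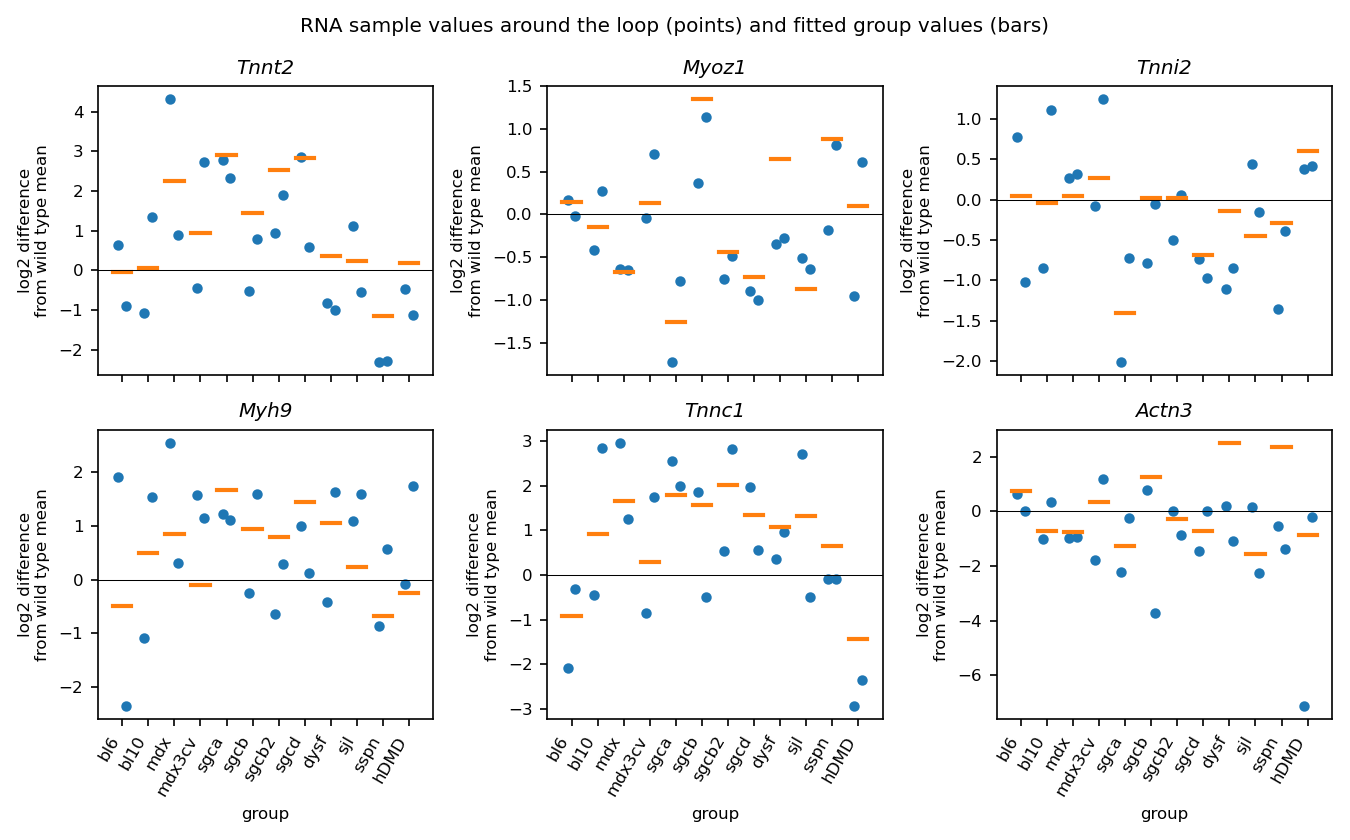
Log2 differences from the wild type mean of 6 genes in 12 groups, with each group on the x axis and 2 points for its RNA samples followed around the loop; the bars are the fitted group values. In Tnnt2 both sgca samples lie above all 4 wild type samples and both sspn samples below them, and in Actn3 hDMD sample 1 stands apart at -7.12.

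Mybph, a relative of myosin-binding protein C listed here with embryonic and regenerating muscle, gave a different pattern from Tnnt2. Its wild type samples were divided, at -1.23 and 2.12 in bl6 and -0.50 and -0.38 in bl10, and the DS samples ran from -2.87 to 2.39. The fitted difference in the DS lines, 1.06 ± 0.44, did not pass (limma adjusted p = 0.153), with 7 of 7 lines above 0. The largest value was that of mdx3cv, 2.22 ± 0.64 (limma adjusted p = 0.36), the DS line with the smallest value of Tnnt2. In sspn, where Tnnt2 was lowest, the fit gave Mybph 1.96 ± 0.75 (0.299), while its sspn samples stood at -0.22 and -0.57 around the loop. Over the 26 arrays the ratios of the 2 genes had a correlation of 0.00.

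Markers of macrophages and fibroblasts were higher in the same contrast, in which 6.5% of all genes were called higher. Of 7 measured macrophage markers 7 passed limma's test upward in the DS lines, by 3.18 on average (2.46 to 4.10), and of 5 fibroblast markers 4, by 1.37 on average. Of 10 regenerating muscle markers 3 passed, all upward, with a list mean of 0.90 and a range from -0.64 to 3.08. Of 6 heart markers 0 passed by limma, with a mean of -0.21 and a range from -0.51 to 0.07. Of 6 fibre markers 0 passed by limma, with a mean of 0.30 and a range from -0.59 to 1.49. The macrophage mean relative to wild type was 4.43 in sgca, 4.64 in sgcd and 3.68 in mdx, the lines in which Tnnt2 passed, but also 3.00 in sgcb2, 2.23 in mdx3cv, 2.07 in sjl and 1.25 in sgcb. It was -0.70 in sspn and -1.06 in hDMD. The part of these cells in the results was not tested.

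None of the fast fibre genes was called in the pooled DS lines, and a pair of them fell in sgca. The list held Myoz1 (myozenin 1, which binds alpha-actinin and calcineurin at the Z-disc), Tnni2, Tnnt3 and Tnnc2 (fast troponins I, T and C) and Actn3 (the alpha-actinin of fast fibres). Pooled over the DS lines, 0 of the 5 passed limma's test and 0 had an unadjusted p under 0.05. Of all genes 7.80% passed and 21.9% had such an unadjusted p. Their differences lay between -0.37 (Tnnc2) and 0.02 (Tnnt3), with a median of -0.28 beside 0.06 for all genes. The sign for Tnnt3 turned when the arrays were centred on their medians (-0.07).

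In sgca 5 of 5 fast fibre genes lay below wild type (median -1.25), and Myoz1 and Tnni2 passed the test. All 5 also lay below wild type in sgcd (median -0.69) and in sjl (median -0.56), with 0 past the test in either. Myoz1 stood at 0.17 and -0.02 in bl6, -0.42 and 0.27 in bl10, and -1.73 and -0.78 in sgca, so the groups did not overlap. The array that held bl6 sample 2 against sgca sample 1 read 1.70 higher in bl6. In the fit Myoz1 fell by 1.26 ± 0.33 in sgca (2.40-fold, limma adjusted p = 0.0231). Tnni2 fell by 1.40 ± 0.38 (2.65-fold, limma adjusted p = 0.0267), with sgca samples at -2.01 and -0.72 and wild type samples from -1.02 to 1.10, which overlap. Tnnt3 differed by -0.86 ± 0.31 (limma adjusted p = 0.0889), Tnnc2 by -0.97 ± 0.38 (0.122) and Actn3 by -1.25 ± 0.90 (0.491).

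Both calls leaned on single samples. Without sgca sample 1 Myoz1 in sgca differed by -0.71 (limma adjusted p = 0.887) and Tnni2 by -1.20 (0.875), and in all 7 of the 26 single omissions ended the call of Myoz1 and 11 that of Tnni2. The other omissions for Myoz1 were bl10 sample 1 (-1.25), bl10 sample 2 (-1.26), bl6 sample 2 (-1.12), mdx sample 1 (-1.16), mdx sample 2 (-1.07) and sgcb2 sample 1 (-1.24). Those for Tnni2 were all 4 wild type samples, both mdx samples, mdx3cv sample 2, sgcb2 sample 2, sjl sample 1 and sspn sample 2, and its values over the 26 omissions ran from -1.77 to -1.02. Against bl10 alone neither gene passed (-1.11 for Myoz1 and -1.36 for Tnni2), and with scaled arrays Myoz1 did not (-1.13). Over the 10 single lines, with 22 members tested in each, there were 6 calls of members, and 1.17% of all tests over all genes were calls. Most of the 6 were in sgca, where 7.42% of all genes passed.

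Myoz1 was the other member, with Tnnt2, that passed the test among the 13 groups (limma F test, adjusted p = 0.0371, and 0.0222 for Tnnt2). These were 2 of 22 members, beside 3.20% of all genes. At an unadjusted p under 0.05 in the same test stood 11 of 22 members (50.0%) and 1114 of 6540 genes (17.0%). The order of Myoz1 ran from -1.26 in sgca over -0.87 in sjl, -0.73 in sgcd, -0.68 in mdx and -0.44 in sgcb2 to 0.65 in dysf, 0.89 in sspn and 1.35 in sgcb. Between the ends the range was 2.61, while neighbours such as sjl, sgcd and mdx lie within 1 SE of each other. Around the loop both dysf samples lay below the wild type mean, at -0.35 and -0.27, unlike the fitted dysf value. The sspn samples stood at -0.18 and 0.81. The sgcb value of 1.35 ± 0.40 did not pass (limma adjusted p = 0.249) and was 0.89 without hDMD sample 1, which shares an array with sgcb sample 2. The call of Myoz1 among the groups was lost without any 1 of 19 of the 26 samples (limma adjusted p up to 0.157), all 4 wild type samples among them, and that of Tnnt2 without any 1 of 10 (up to 0.127), among them bl10 sample 2, bl6 sample 2, sgcb sample 2 and both samples of mdx3cv, sgcb2 and sspn.

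**Figure D2:**
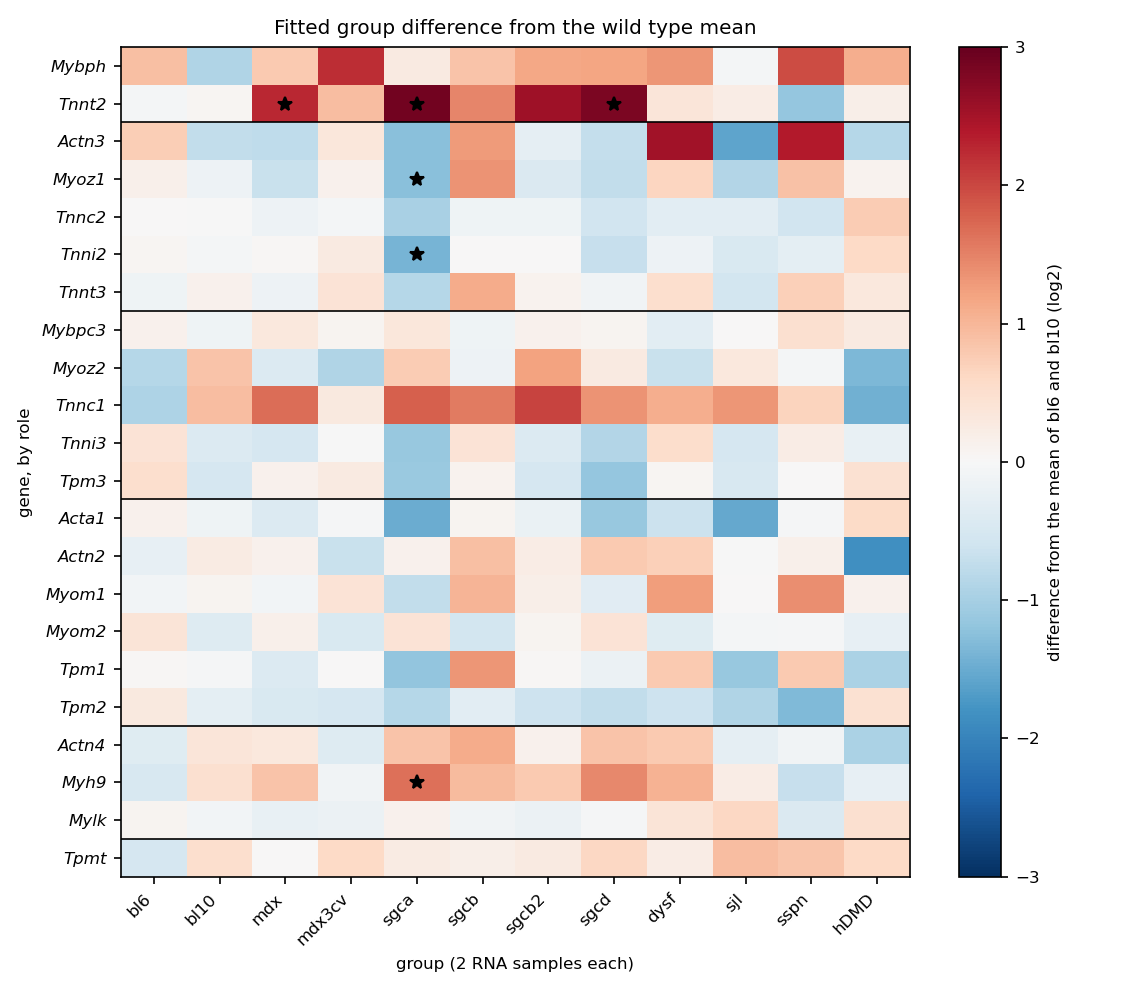
Fitted log2 difference of each of the 22 genes (rows, ordered by role and separated by lines) from the mean of bl6 and bl10, in 12 groups (columns, 2 RNA samples each); stars mark an adjusted p under 0.05 against wild type. Of the 6 stars 3 are in the row of Tnnt2 (mdx, sgca and sgcd) and 3 more are in sgca, for Myoz1, Tnni2 and Myh9.

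Actn3, with a range of group values of 4.09 beside 4.06 for Tnnt2, had no difference that passed. Fitted differences were 2.51 ± 1.12 in dysf, 2.37 ± 1.10 in sspn, 1.27 in sgcb and -1.58 in sjl. The loop values did not follow them: dysf stood at 0.19 and -1.09 and sspn at -0.54 and -1.36. The array of hDMD sample 1 with dysf sample 2 read -6.03, and that of sgcb sample 2 with hDMD sample 1 read 3.39. Without hDMD sample 1 the differences became 0.81 in dysf, 1.5 in sspn, 0.08 in sgcb and -1.25 in sjl, and that of hDMD went from -0.85 to 1.48. The 2 dysferlin-deficient lines lay 4.09 ± 1.17 apart in Actn3 (limma adjusted p = 0.252) and 2.06 without that sample. In this comparison of dysf with sjl, added after the values were seen, 0 of 22 members passed limma's test, beside 0.153% of all genes, and 4 had an unadjusted p under 0.05, beside 667 of 6540 genes (10.2%).

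Tnnc1, troponin C of slow fibres and heart, had the largest difference of the 5 genes of slow fibres and heart. Its loop values were -2.09 and -0.31 in bl6, -0.45 and 2.85 in bl10, and from -0.85 to 2.96 in the DS samples with a median of 1.5. Wild type alone therefore spanned nearly the whole range of the DS lines. The fitted difference was 1.31 ± 0.55 (limma adjusted p = 0.16), with 7 of 7 DS lines above 0. It was 2.02 in sgcb2 and 0.28 in mdx3cv. The difference was 1.21 ± 0.73 in the dysferlin-deficient lines (limma adjusted p = 0.703). In hDMD both loop values, -2.93 and -2.36, lay below wild type. The fitted hDMD difference of -1.44 ± 0.91 did not pass (limma adjusted p = 0.813) and was -0.91 without hDMD sample 1.

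The other slow and heart genes differed less. Myoz2, the myozenin of slow fibres and heart, differed by 0.08 ± 0.40 in the DS lines, a sign that turned with the arrays centred on their medians (-0.006). Tnni3, cardiac troponin I, differed by -0.46 ± 0.37 and was at -1.13 in sgca. Tpm3, the tropomyosin of slow fibres, differed by -0.41 ± 0.28, with -1.12 ± 0.40 in sgca (limma adjusted p = 0.0893) and -1.16 ± 0.45 in sgcd (0.199). Against bl10 alone Tpm3 turned to 0.09. Mybpc3, the cardiac myosin-binding protein C, differed by 0.12 ± 0.31, and its 2 rows of spots had a correlation of only 0.24. In the DS lines 0 of the 5 passed by limma and 1 had an unadjusted p under 0.05, beside 7.80% and 21.9% of all genes.

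The wild type strains themselves gave 0 calls among the 22 by limma, where 0.0153% of all genes were called. At an unadjusted p under 0.05 (limma) stood 5 of 22 members and 522 of 6540 genes (8.0%). The values of bl10 minus bl6 were 1.85 ± 0.87 for Tnnc1, 1.73 ± 0.63 for Myoz2, 1.00 ± 0.41 for Tpmt, -1.80 ± 0.69 for Mybph and -0.99 ± 0.45 for Tpm3, with limma adjusted p from 0.512 to 0.61. Of these 5, 3 belong to the slow fibre and heart list. The macrophage markers stood 1.11 higher in bl10 than in bl6, with 0 of 7 past the test.

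**Figure D3:**
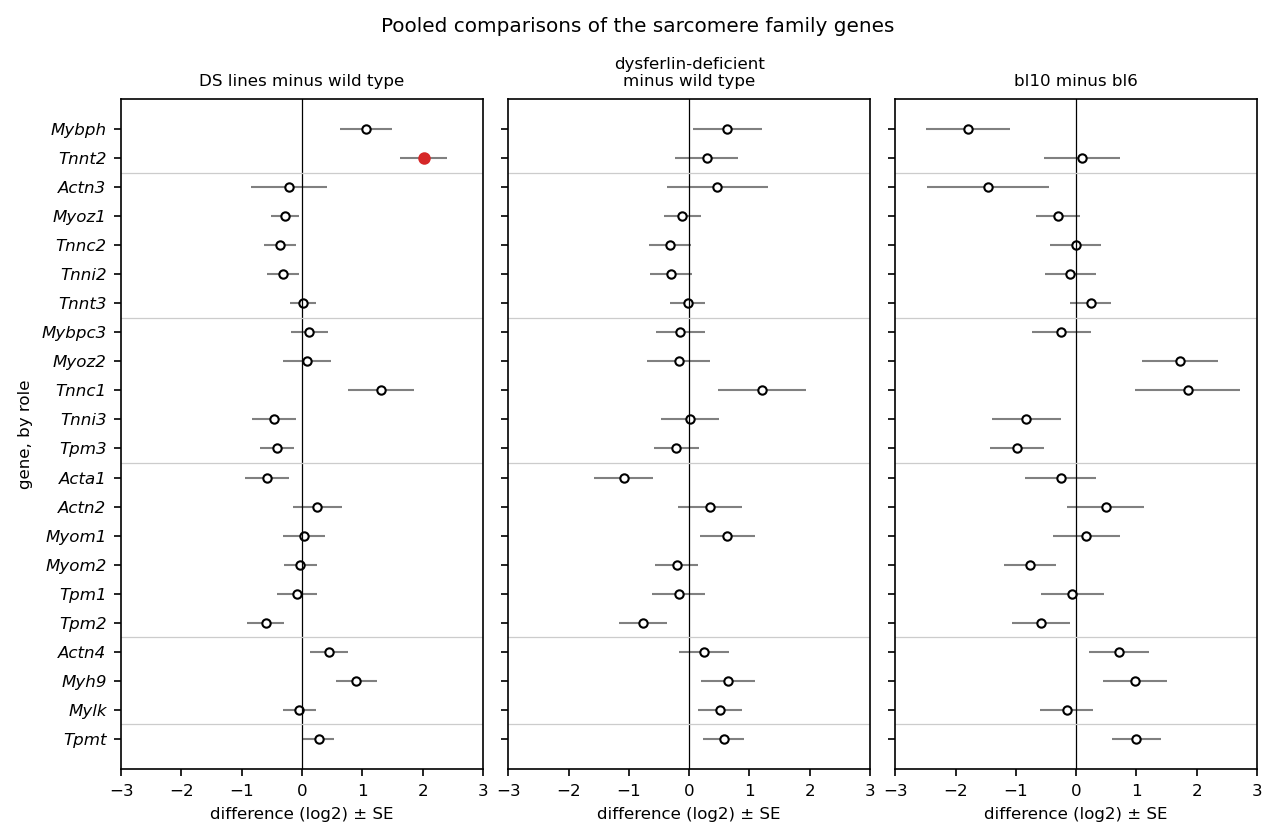
Fitted log2 differences with SE of the 22 genes (y axis, by role) for the DS lines minus wild type, the dysferlin-deficient lines minus wild type and bl10 minus bl6; the filled point passed an adjusted p of 0.05. Tnnt2 at 2.02 in the DS lines is the only filled point, and between the strains Mybph lies at -1.80, Myoz2 at 1.73 and Tnnc1 at 1.85, all open points.

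Of the 6 genes listed as shared by fibre types, 0 passed in the DS lines, with 0 at an unadjusted p under 0.05 (limma) and a median of -0.06. Among all genes 7.80% passed there and 21.9% had such an unadjusted p. Acta1, skeletal muscle actin, had wild type samples from -2.07 to 2.88 and differed by -0.58 ± 0.37. It was lowest in sjl, at -1.53 ± 0.53 (limma adjusted p = 0.296), and in sgca, at -1.49 ± 0.53 (0.0854). Pooled over both dysferlin-deficient lines, at -1.08 ± 0.49, it was the 1 member with an unadjusted p under 0.05 (adjusted p = 0.528). There 0 of 22 members passed limma's test and 0.0459% of all genes did, while 8.8% of all genes had an unadjusted p under 0.05.

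Tpm1, an alpha-tropomyosin listed here as shared though most abundant in fast fibres and heart, differed by -0.09 ± 0.33 in the DS lines. By line it went from -1.19 ± 0.47 in sgca (limma adjusted p = 0.129) and -1.13 ± 0.48 in sjl to 1.32 ± 0.57 in sgcb, and the last was 0.46 without hDMD sample 1. Without that sample the sgca difference of -1.20 passed (limma adjusted p = 0.0269). Tpm2, beta-tropomyosin, lay below wild type in 7 of 7 DS lines, by -0.61 ± 0.31 together (0.255), and at -1.33 ± 0.53 in sspn (0.312), whose samples stood at -2.42 and -2.55 against a lowest wild type sample of -0.92. Actn2, the alpha-actinin of all sarcomeres, differed by 0.26 ± 0.40, and Myom1 and Myom2, the myomesins of the M-band, by 0.04 ± 0.35 and -0.03 ± 0.27. The rows of Myom2 had a correlation of 0.30.

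In hDMD 0 members passed with both samples (0.0153% of all genes did), and Actn2 at -1.83 ± 0.67 was the 1 with an unadjusted p under 0.05 (limma adjusted p = 0.59). Such an unadjusted p was reached by 6.6% of all genes. With hDMD sample 1 as the only hDMD sample 4 members passed: Actn3 (-4.18), Actn2 (-3.55), Tpm1 (-2.53) and Actn4 (-2.31), with limma adjusted p from 0.0107 to 0.0367, while 4.20% of all genes passed in the same fit, 231 lower and 44 higher. With sample 2 as the only hDMD sample the same genes stood at 1.48, -0.66, 0.19 and 0.01. A lone sample gives no spread within hDMD. Sample 1 had also been set apart because of values such as those of Actn3 and Actn2. Its 4 passes therefore describe that sample and are no test of hDMD.

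Myh9, Actn4 and Mylk belong to smooth muscle and non-muscle cells. Myh9, the heavy chain of non-muscle myosin, differed by 0.90 ± 0.34 in the DS lines (limma adjusted p = 0.111), and it passed in sgca, where it rose by 1.66 ± 0.48 (3.15-fold, 0.0409). Its wild type samples, from -2.35 to 1.90, covered the sgca samples at 1.22 and 1.11. Against bl10 alone the sgca difference was 1.17 (0.399), and without sgca sample 1 it was 0.40 (0.965). Of the 26 single omissions 14 ended the call, among them bl6 sample 2 (0.73), both samples of bl10, mdx, mdx3cv, sgcb2 and sgcd, and sspn sample 1. Actn4, a non-muscle alpha-actinin, differed by 0.45 ± 0.32, and Mylk, the kinase of smooth and non-muscle myosin light chain, by -0.05 ± 0.28, with a correlation of 0.40 between its rows. Of 3 smooth muscle markers 0 passed, with a mean of -0.01. Tpmt, matched by name and with a correlation of 0.56 between its rows, differed by 0.27 ± 0.26, and its sign turned against bl10 alone (-0.23).

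Taken over all pairs, the correlations of the members centred near the value for all genes. Over the 26 array ratios, where neighbouring arrays share an RNA sample, the 231 pairs of members had a median correlation of -0.05, beside 0.00 for all pairs of genes. Within the 10 pairs of fast fibre genes the median was 0.48 (-0.20 to 0.83), and within the 10 pairs of slow fibre and heart genes -0.22 (-0.51 to 0.76). Most pairs of all genes lay between -0.44 and 0.54. Without the arrays of hDMD sample 1 the fast fibre pairs ran from 0.34 to 0.84 and the slow and heart pairs from -0.57 to 0.91. Some sets of members had high correlations, which is how they were picked, after the values were seen, and supports nothing further. In 1 such set, Actn3, Myom1, Myoz1, Tnni3, Tnnt3 and Tpm1, all 15 pairs lay between 0.48 and 0.84. In another, Acta1, Tnnc2, Tnni2, Tpm2 and Tpm3, all 10 pairs lay between 0.52 and 0.82. Each of these sets holds at least 1 fast troponin and 1 gene of the slow and heart list, and without the arrays of hDMD sample 1 their lowest r was 0.60 and 0.52. The third set, Actn2, Actn4, Myh9 and Tnnc1, went from a lowest r of 0.52 to 0.24 without them. The most opposed pair was Tnnc1 with Tpm2, at -0.64. Without the arrays of hDMD sample 1 that pair was at -0.52, and the lowest were Actn4 with Tnni3 and Myom1 with Tnnt2, both at -0.64.

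**Figure D4:**
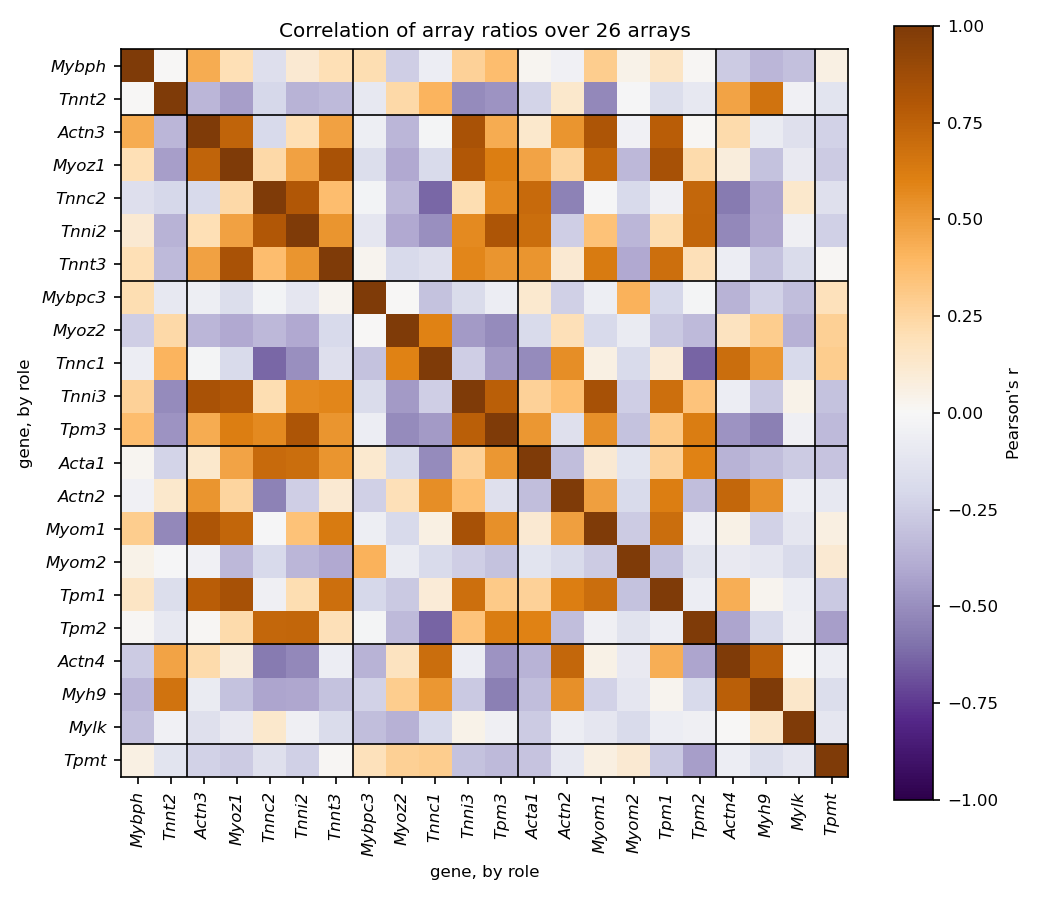
Pearson's r between the array ratios of every pair of the 22 genes over 26 arrays, with genes in the same order by role on both axes. Myoz1 with Tpm1 and Myom1 with Tnni3, both at 0.84, are the highest pairs over these arrays, and Tnnc1 with Tpm2, at -0.64, is the lowest; without the arrays of hDMD sample 1, which are plotted, Tnni3 with Tpm3 is highest at 0.91 and Tnnc1 with Tpm2 is at -0.52.

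Troponin genes lie in pairs of a troponin I and a troponin T in the mouse genome, and the arrays held all 3 pairs. Tnni1, troponin I of slow fibres, and Tnnt2 lie on chromosome 1 with 1 protein-coding gene between them in the RefSeq table, and their array ratios had a correlation of 0.73. Tnni2 and Tnnt3, on chromosome 7 with 1 gene between them, had 0.53. Tnni3 and Tnnt1 lie next to each other on chromosome 7, and their correlation was -0.52. Without the arrays of hDMD sample 1 the same values were 0.81, 0.62 and -0.66, again as descriptions over arrays that share samples. Set beside the 2 slow troponins that the rule leaves out, Tnnt2 rose by 2.02 in the DS lines, where Tnni1 rose by 3.24 ± 0.56 and Tnnt1, slow troponin T, by 2.10 ± 0.55 (limma adjusted p = 0.00247 and 0.0226). In the dysferlin-deficient lines the differences were 0.30 ± 0.52 for Tnnt2, 2.56 ± 0.74 for Tnni1 and 1.39 ± 0.72 for Tnnt1, with 0 of the 3 past limma's test (1 at an unadjusted p under 0.05). From bl6 to bl10 they differed by 0.10, 1.32 and 2.37 in the same order.

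Of the other sarcomere and Z-disc genes, a list of 48 with 28 measured, 3 passed limma's test in the DS lines, all upward, and the median was 0.26. The 3 of 28 stand beside 7.80% of all genes called, most of them upward too. At an unadjusted p under 0.05 stood 11 of the 28 and 1434 of 6540 genes (21.9%). Ankrd1, a titin-binding stress protein, rose by 1.65 ± 0.34 (adjusted p = 0.00677), Pdlim1, a Z-disc and stress fibre adaptor, by 0.95 ± 0.28 (0.0403) and Capza1, which caps actin filaments, by 0.88 ± 0.26 (0.0416). The next by p were Fhl1 (1.23 ± 0.39), Trim54 (-1.11 ± 0.36) and Tmod4 (-0.79 ± 0.28), with limma adjusted p from 0.0533 to 0.0866. Ankrd1 was at 2.54 in sgca, 2.41 in sgcd and 2.29 in sgcb2, at 1.59 in mdx, 1.21 in mdx3cv and 1.03 in sjl, and at -0.06 in sgcb.

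In sgca 2 of the 28 rose and 3 fell, where 6.0% of all genes rose and 1.4% fell. Ankrd1 and Csrp3, a muscle LIM protein, rose by 2.54 ± 0.49 and 1.65 ± 0.45 (limma adjusted p = 0.00562 and 0.0299). Tmod4 and Tmod1, tropomodulins that cap thin filaments, differed by -1.76 ± 0.40 and -1.48 ± 0.45, and Trim54, a ubiquitin ligase of the sarcomere, by -1.78 ± 0.51 (0.0119, 0.0458 and 0.0373). These stand beside the falls of Myoz1 and Tnni2 in the same line, whose fibre markers had a mean of -0.46 with 0 of 6 past the test.

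The genes of the whole table whose array ratios were most like those of a member differed from member to member. For Tnnt2 they were Tuba1a (r = 0.91), an alpha-tubulin, Mfap5 (0.90), a protein of elastic microfibrils, and Tfpi2 (0.88), a protease inhibitor. For Myh9 they were Xrn2 and Snx1 (both 0.89) and Ext1 (0.86). For Myoz1 they were Acvr2b and Wnt4 (both 0.87) and Poll (0.86). Tnnt3 was most like Myoz1 (0.83), Atp2a1 (0.82), the calcium pump of fast fibres, and Gapdh (0.77). Tpm1 was most like Suclg2 (0.93), Cox6a2 (0.91) and Dpysl4 (0.91), which without the arrays of hDMD sample 1 went to 0.81, 0.75 and 0.75. The 3 of Tnnt2 stayed at 0.89 or above over those 24 arrays.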

How the data were processed

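The authors deposited 1 ratio per spot and array; no source names its unit. From the steps between low values (tolerance 1%) the deposited ratios are natural log values on a generalized log scale, which understates changes of dim spots: the steps were whole in the natural log on 25 of 26 arrays and in log2 or log10 on 0. The plan of tests had assumed log2. Values were divided by 0.6931 to give log2, and array medians (-0.074 to 0.173 before division) were left as deposited. Of 16416 rows, 13662 had 1 gene, 14 several and 2740 none, and rows of a gene were averaged. No source used here names the normalization.

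Generalized least squares with 1 dye term, 12 group terms and the RNA sample as a random effect (variance ratio 0.207 by REML), then limma 3.58.1 in R 4.3.3, gave moderated tests with 20.4 degrees of freedom, adjusted by Benjamini-Hochberg over 6540 genes. The fit was tested on simulated data with the same spread on every array and no outlying sample. The array weights of the real data ran from 0.337 to 3, a difference between arrays that the simulation does not cover. The number of arrays limits the precision. Whether equal replicate numbers pair the samples was not settled: over 78 pairs of groups the correlation of deviations was above 0.1 in 31 and below -0.1 in 36. Samples of the loop share arrays, so their deviations are linked in any case, and this check cannot exclude a replicate batch.

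Members and lists were chosen with earlier results of these data known. Named are members past the threshold, the 3 of each role with the smallest p among groups, the 3 genes most like each of 5 members, and the 6 other sarcomere genes with the smallest p; other members are named to account for all. Alternatives were other centring, scaling, weights, rows, control strains, a replicate block, values read as log2, and each sample left out with both its arrays, which opens the loop and leaves a lone sample assumed to vary like the others. The comparisons with sspn and of dysf with sjl were added after the values were seen. The results of 1 sarcoglycan-deficient line by itself are not reported here.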

Additional observations from a re-analysis of the deposited data

Results flagged for a closer look

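Tnnt2 in the DS lines stood 3.18 above sspn on the log2 scale (limma adjusted p = 0.00355). This comparison was added because the low sspn values had been seen, so it describes them and is no independent test, and it rests on 1 line of 2 samples. Without sspn sample 1 or sspn sample 2 it did not pass (limma adjusted p = 0.169 and 0.183). The planned comparison of the DS lines with the dysferlin-deficient lines did not pass for Tnnt2 (1.72 ± 0.40, limma adjusted p = 0.121). Each group has 2 samples, too few for a test of single samples as outliers.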

How the results depend on the processing

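Tnnt2 in the DS lines kept its direction under all 35 alternatives and its call in 33, with values from 1.4 (ratios taken as log2) to 2.5. The count of members that differ among the groups, 2 as reported, was 1 with centred and scaled arrays and 8 with array weights, and 0 to 7 with 1 sample left out. The count in the DS lines, 1, was 2 with array weights, which added Myh9 (1.14), 0 against bl10 alone, and 0 to 2 with 1 sample left out. The 6 calls in single lines were 3 with centred and scaled arrays, 11 with array weights, 0 against bl10 alone, and 1 to 12 with 1 sample left out. The DS lines against the dysferlin-deficient lines gave 0 to 1, and against sspn 0 to 4, with 1 sample left out. That last count, 1, was 2 with centred and scaled arrays, 3 without the random effect and 6 with array weights. The cause of these changes was not tested.

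The check on equal replicate numbers could not decide whether samples were paired. With the replicate block the counts were 2 among groups, 1 in the DS lines, 6 in single lines and 2 against sspn, which added Myoz1 (-1.09).

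Differences of DS lines from wild type that turned sign were all uncalled. Against bl10 alone they were Actn3 (0.514), Mylk (0.032), Myoz2 (-0.784), Tnnt3 (-0.1), Tpm3 (0.085) and Tpmt (-0.225). With centred arrays they were Myoz2 (-0.006) and Tnnt3 (-0.067), and with scaling too Myoz2 (-0.196) and Tnnt3 (-0.087). With 1 sample left out Acta1 ran from -0.987 to 0.01, Actn3 from -0.548 to 0.031, Mylk from -0.334 to 0.172, Myoz2 from -0.214 to 0.344, Tnnt3 from -0.159 to 0.186, Tpm1 from -0.418 to 0.127 and Tpmt from -0.027 to 0.531. With 2 samples a group, and no signal over background among the values used, precision is limited by the number of arrays.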
